A study of Mus musculus with 18 samples.

Results

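The 48 genes described here run or mark the mitotic cell cycle: the cyclins and cyclin-dependent kinases (CDKs), the RB and E2F proteins, the proteins that license and copy DNA, and the proteins that carry out mitosis. They were picked from the count table by gene symbol, 48 of 55385 genes, and were sorted by textbook role into a G1 class of 11 genes, an S class of 21 and a mitotic class of 16. All 48 had enough counts to be tested, as had 16041 genes in all. The RNA came from wild-type mouse gastruloids, which are aggregates of embryonic stem cells that break symmetry and lay down germ layers in culture. The cells were of the strain 129/SVEV, and the gastruloids of a condition were pooled before extraction. CHIR, which blocks the kinase GSK3 and so switches on Wnt signalling, was given as a pulse. In the control arm the pulse ran from 48 to 72 h after aggregation, so that controls collected at 48 h were untreated. In the early arm it ran from 24 to 48 h. Each arm was collected at 48, 72 and 96 h with 3 libraries per group, 18 in all. The comparisons ask how the timing of the Wnt pulse relates to the expression of these genes.

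In G1, D-type cyclins activate Cdk4 and Cdk6, which phosphorylate RB and its relatives p107 and p130 and so release E2F transcription factors. E2F then drives cyclin E, which activates Cdk2, together with the helicase and nucleotide enzymes of S phase, while cyclins A and B with Cdk1 take the cell into mitosis. Mitotic genes are switched on later than S phase genes: the DREAM complex represses them in resting and early G1 cells, and its MuvB core later activates them with MYBL2 and FOXM1. Mouse embryonic stem cells are known for a short G1 and for cyclin E levels that vary little over the cycle, and G1 lengthens as they differentiate.

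Total counts per library were 14841728 to 24536538. Control replicate 3 stood apart at every age: its counts differed from those of replicates 1 and 2 by chi-square values, divided by their degrees of freedom, of 15.4 to 28.1 over 6 pairs, against 1.41 to 7.90 for the 12 other pairs of replicates, so counts of changed genes are also given without the 3 control libraries numbered 3. The labels name more than 1 code for library preparation without tying it to libraries, so that a preparation batch could not be modelled. Nothing in the labels states that the libraries of a group were separate cultures, and the p-values measure the spread between these libraries alone, which may be technical. The summed level of 4 pluripotency markers was 1664 to 2013 CPM (reads of a gene scaled to a fixed library size) in all libraries but the controls of 96 h, where it was 312 to 587 CPM. That sum was mostly Pou5f1, and single markers moved apart between the controls of 48 and 72 h. Sox2 was at 159.8 to 189 CPM and then at 28.5 to 61.1 CPM. Utf1 was at 330.1 to 408 CPM and then at 46.0 to 63.5 CPM. Nanog was at 39.2 to 49.7 CPM and then at 242 to 342 CPM. The summed level of 4 primitive streak markers was 6.93 to 7.89 CPM in the untreated controls of 48 h, 78.5 to 93.8 CPM and 69.2 to 74.0 CPM in the early libraries of 48 and 72 h, and 631 to 1613 CPM in the rest. In the rest the sum was mostly T, and Eomes moved apart from it. Eomes was at 5.19 to 6.15 CPM in the controls of 48 h, 0.624 to 3.86 CPM in those of 96 h and 154 to 202 CPM in the early arm of 96 h. Presomitic and somite markers summed to 152 to 488 CPM in the controls of 96 h and to at most 8.30 CPM elsewhere. In the controls of 96 h that sum was mostly Tbx6 and Msgn1, and Tcf15 moved apart from it. Tcf15 was at 5.35 to 5.71 CPM in the controls of 48 h. It was at most 2.36 CPM in those of 72 and 96 h, below all other libraries. Of 7 fibroblast and feeder markers, Lum and S100a4 were at 0 in all libraries, and the sum was 23.9 to 28.6 CPM in the controls of 48 h, 14.8 to 39.1 CPM in those of 96 h and 7.35 to 14.3 CPM elsewhere. Markers of extraembryonic endoderm summed to at most 11.4 CPM and those of trophoblast to at most 17.8 CPM. The part of these markers in the results below was not tested.

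The classes differed in the letters of their promoters. These letters were not compared with the changes below, and their part in those changes was not tested. RefSeq promoter windows (mouse build GRCm38.p6, from 250 bases before to 50 after a start) matched 39 of the 48 genes. The E2F letters TTTCCCGC, TTTCGCGC, TTTGCCGC or TTTGGCGC stood on either strand in 10 of 18 S genes, 55.6%, in 1 of 13 mitotic genes, 7.69%, in 1 of 8 G1 genes, 12.5%, and in 2.60% of the 27025 genes with a window. The cell cycle homology letters TTTGAA or TTCGAA (CHR, bound by DREAM) stood in 10 of 13 mitotic genes, 76.9%, 5 of 18 S genes, 27.8%, 1 of 8 G1 genes and 21.7% of all genes. The CCAAT letters, bound by NF-Y, stood in 11 of 13 mitotic genes, 84.6%, 13 of 18 S genes, 72.2%, 4 of 8 G1 genes and 41.1% of all genes. A match describes the letters and does not show that a protein binds there. The stretches below run 5′ to 3′ on the strand of the gene and lie before its start, with the letters of all 3 motifs in capitals on either strand. The first 3 are S genes with E2F letters, which overlap on both strands in Mcm5 and Mcm6, and the last 3 are mitotic genes.
Cdc6, chr11:98908003-98908030, plus strand: ccggtggagaGCGGGAAAtcgcctgggg
Mcm5, chr8:75109346-75109501, plus strand: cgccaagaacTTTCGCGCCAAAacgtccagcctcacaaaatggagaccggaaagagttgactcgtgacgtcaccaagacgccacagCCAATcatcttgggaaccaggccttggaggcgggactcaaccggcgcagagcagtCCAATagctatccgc
Mcm6, chr1:128359706-128359825, minus strand: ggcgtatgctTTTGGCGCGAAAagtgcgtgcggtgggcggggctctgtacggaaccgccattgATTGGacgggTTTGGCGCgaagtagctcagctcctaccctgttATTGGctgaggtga
Ccnb1, chr13:100786539-100786595, minus strand: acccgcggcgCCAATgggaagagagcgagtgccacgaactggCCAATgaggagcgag
Cdc20, chr4:118437344-118437406, minus strand: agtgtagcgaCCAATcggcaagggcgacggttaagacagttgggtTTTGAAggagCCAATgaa
Bub1b, chr2:118598013-118598112, plus strand: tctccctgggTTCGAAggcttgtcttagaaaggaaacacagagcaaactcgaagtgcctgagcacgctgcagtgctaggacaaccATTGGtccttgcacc

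Changes below are log2 fold changes ± SE from edgeR's quasi-likelihood test, with p-values adjusted by Benjamini-Hochberg over all 16041 genes, and a gene rose or fell where the adjusted p was under 0.05. Levels are CPM, given as mean ± SD with n = 3 libraries where not per library. In pooled tissue, fewer cells in a phase and less RNA per cell cannot be told apart, and every level is a share of the messenger RNA. At 48 h, the end of the early pulse, 0 of 16 mitotic genes were higher and 8 were lower in the early arm than in the untreated controls, with 3 higher and 6 lower of 21 S genes and 4 higher and 2 lower of 11 G1 genes. Over all genes, 23.0% were higher and 20.7% lower, 43.7% in all. Of these mitotic calls that of Ccna2 was lost in most fits that left out a library of 48 h. Without a filter the calls of Ccna2 and Ccnb2 were lost. That of Top2a was lost when control replicate 3 of 48 h alone was left out, and that of Bub1b without early replicate 1. At 72 h, when the controls were at the end of their own pulse, 11 mitotic genes were higher and 1 lower in the early arm. These counts were 7 and 3 for the S genes and 3 and 2 for the G1 genes, against 21.7% and 23.2% of all genes, 44.9% in all. Every library of 72 and 96 h had been pulsed, so the timing of the pulse and the time since it cannot be told apart there. At 96 h 9 mitotic genes were higher and 1 lower, with 7 and 7 of the S genes and 1 and 4 of the G1 genes, against 29.5% and 29.6% of all genes, 59.1% in all. Median differences of the mitotic class were -0.11, 0.21 and 0.23 at the 3 ages. Those of the S class were -0.06, 0.05 and 0.00, and those of all genes 0.02, -0.02 and -0.01. Without the 3 control libraries numbered 3, the mitotic counts were 0 higher and 9 lower at 48 h, 12 and 1 at 72 h, and 9 and 2 at 96 h. That fit called more genes of any kind, 7806, 8176 and 10271 at the 3 ages, against 7014, 7196 and 9482 with all libraries. Of these called genes 50.9%, 50.1% and 50.4% were higher without the 3 libraries.

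**Figure D1:**
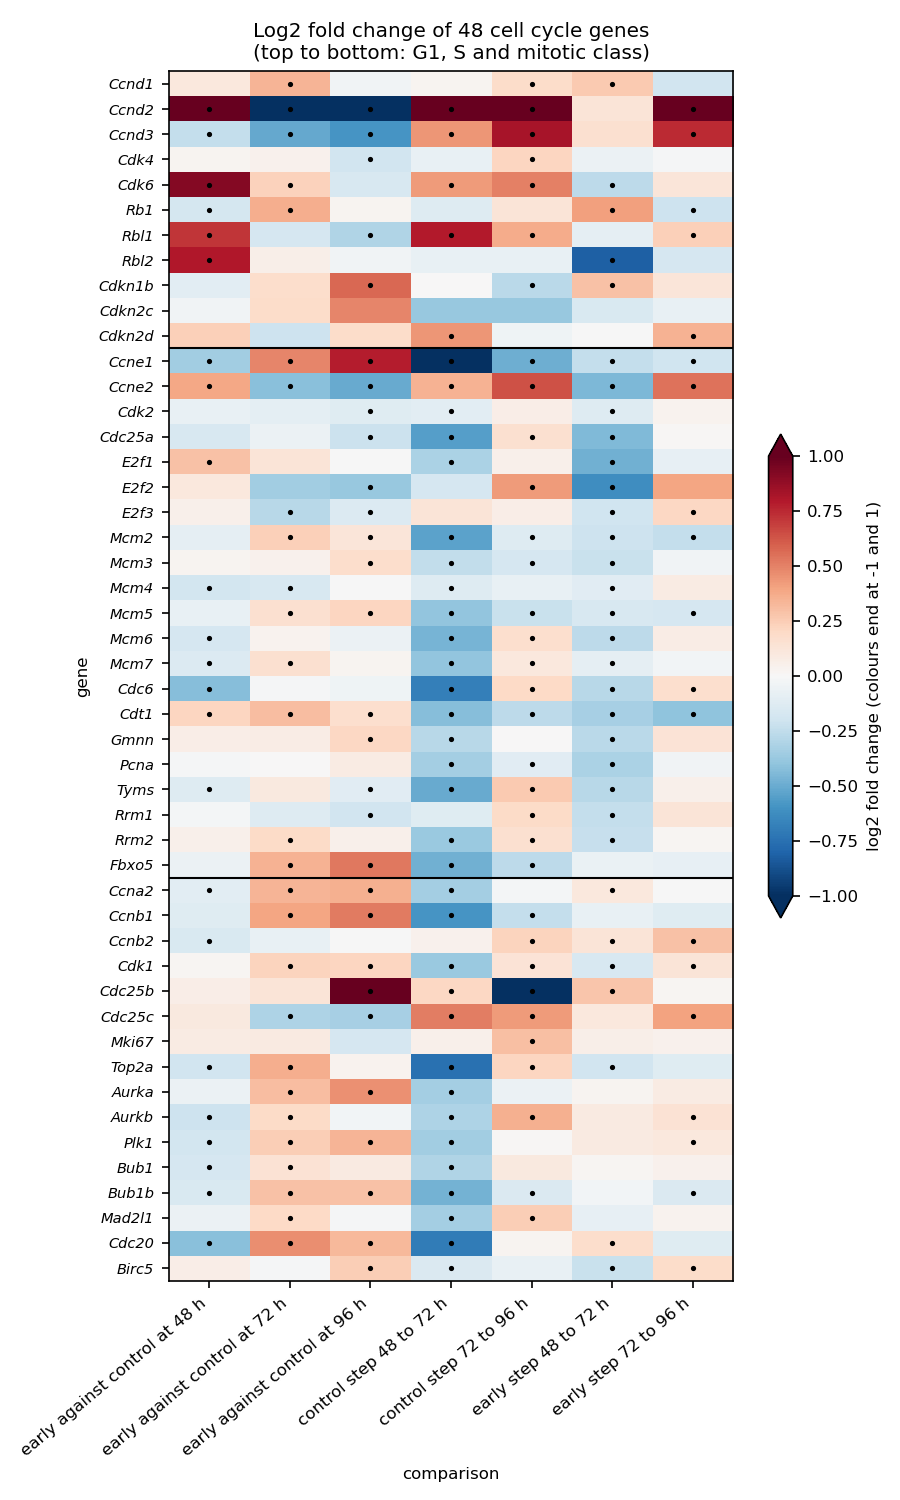
Log2 fold change of the 48 genes (vertical axis, G1, S and mitotic class from top to bottom) in 7 comparisons (horizontal axis), red for higher and blue for lower, with colours ending at -1 and 1 and a dot where edgeR's adjusted p was under 0.05. The S class is mostly blue in both steps from 48 to 72 h, while the mitotic class is mostly blue in the control step and mostly pale in the early step.

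Between 48 and 72 h, S genes fell in both arms and mitotic genes fell mainly in the controls. No library of 72 h was untreated, so age and the pulse cannot be told apart in the control step. In the early step, age and the time since the pulse cannot be told apart either. In the control step 17 of 21 S genes fell and 1 rose, 12 of 16 mitotic genes fell and 2 rose, and 5 of 11 G1 genes rose and 0 fell, where 31.1% of all genes rose and 30.3% fell, 61.4% in all. In the early step 20 S genes fell and 0 rose, 3 mitotic genes fell and 4 rose, and 2 G1 genes fell and 3 rose, where 20.7% of all genes rose and 21.9% fell, 42.6% in all. Without the 3 control libraries numbered 3, 16 S and 11 mitotic genes fell in the control step. Of all genes 9993 were then called in that step, against 9848 with all libraries, and 50.0% of the 9993 rose. On log2(FPKM + 1) 14 S genes and 0 mitotic genes fell in the early step and 8 mitotic genes rose. On that scale 70.3% of all genes called in this step rose, against 48.7% in counts, so the shift was not particular to these classes. In counts the early step rises of Ccna2, Ccnb2 and Cdc20 were each lost in most fits that left out a library. Those of Ccna2 and Ccnb2 were also lost without a filter. Class medians of the S genes were -0.37 in the control step and -0.24 in the early step, and those of the mitotic genes -0.34 and 0.04. From 72 to 96 h in the controls 9 S, 7 mitotic and 6 G1 genes rose and 7, 3 and 1 fell, against 27.5% and 27.4% of all genes, 54.9% in all. In the early arm over the same day 3 S, 6 mitotic and 4 G1 genes rose and 4, 1 and 1 fell, against 17.6% of all genes in each direction, 35.3% in all. Without the 3 control libraries numbered 3, 8 S, 7 mitotic and 5 G1 genes rose in that control step and 7, 2 and 1 fell. Of all genes 9104 were then called, against 8802 with all libraries, and 51.0% of the 9104 rose.

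Among the D-type cyclins, which start the cycle in G1, Ccnd2 changed most between the groups. Ccnd2 (cyclin D2, ENSMUSG00000000184.12, mm10 chr6:127125161-127152193) stood in the control arm at 5.30, 4.75 and 5.64 CPM at 48 h, 137, 164 and 185 at 72 h and 473, 480.1 and 464 at 96 h. In the early arm it was at 35.3, 31.7 and 33.0 CPM at 48 h, 36.1, 37.6 and 35.7 at 72 h and 103, 85.1 and 76.5 at 96 h. No libraries of the arms overlapped at any age, and the order of the arms changed: the early arm was higher at 48 h, by 2.68 ± 0.14 (adjusted p = 2.94e-11), and lower at 72 h, at -2.15 ± 0.10 (adjusted p = 1.84e-11), and at 96 h, at -2.42 ± 0.10 (adjusted p = 5.93e-13). On the log2(FPKM + 1) scale the difference at 48 h was 1.59. From 48 to 72 h, the day of its own pulse, the control arm raised Ccnd2 by 4.96 ± 0.13 (adjusted p = 1.40e-15), and over the next day by 1.55 ± 0.09 (adjusted p = 2.04e-10). Age and the pulse cannot be told apart in the former step. Early gastruloids held the level of 48 h at 72 h, 0.13 ± 0.11 (adjusted p = 0.351), and raised it by 1.28 ± 0.10 (adjusted p = 7.82e-08) by 96 h. As a share of the summed FPKM (a level per transcript length) of the 3 D-type cyclins, Ccnd2 made up 0.815% ± 0.0922, 19.1% ± 1.94 and 34.7% ± 3.28 in the controls of 48, 72 and 96 h, and 4.93% ± 0.344, 4.62% ± 0.0831 and 10.3% ± 1.49 in the early arm. In the controls of 96 h presomitic and somite markers summed to 456, 488 and 152 CPM in replicates 1, 2 and 3, and their part in the level of Ccnd2 was not tested.

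Ccnd1 (cyclin D1), the leading D-type cyclin per length in all 6 groups, changed little beside Ccnd2. Its levels were 288, 295 and 264 CPM at 48 h, 273, 287 and 301 at 72 h and 298, 294 and 388 at 96 h in the controls. The early libraries were at 295, 308 and 306 CPM at 48 h, 357, 368 and 363 at 72 h and 312, 323 and 318 at 96 h. Only at 72 h did the arms pass the test, at 0.34 ± 0.08 (adjusted p = 0.00141), with all early libraries above all controls. The 96 h difference of -0.04 ± 0.08 (adjusted p = 0.686) rested on control replicate 3, at 388 CPM: without the 3 control libraries numbered 3 it was 0.11 (adjusted p = 0.0157). The control rise from 72 to 96 h, 0.18 ± 0.08 (adjusted p = 0.0469), was also lost without them (0.09, adjusted p = 0.0906). Ccnd1 rose by 0.26 ± 0.08 (adjusted p = 0.0101) over the day after the early pulse.

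Ccnd3 (cyclin D3) rose with age in both arms and was lower in the early arm at all 3 ages. The controls were at 41.9, 41.7 and 46.0 CPM at 48 h, 60.1, 62.4 and 53.1 at 72 h and 99.6, 98.3 and 114 at 96 h, and the early libraries at 36.7, 33.6 and 39.5 CPM at 48 h, 42.8, 40.4 and 39.7 at 72 h and 69.8, 66.6 and 70.4 at 96 h. Differences were -0.24 ± 0.08 (adjusted p = 0.0166), -0.52 ± 0.07 (adjusted p = 1.82e-05) and -0.59 ± 0.07 (adjusted p = 9.47e-07) at the 3 ages, the first lost when control replicate 3 or early replicate 2 of 48 h was left out (highest adjusted p = 0.0918). At no age did libraries of the arms overlap. The control steps raised it by 0.44 ± 0.07 and 0.83 ± 0.07 and the early steps by 0.16 ± 0.08 (adjusted p = 0.0902) and 0.75 ± 0.07.

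**Figure D2:**
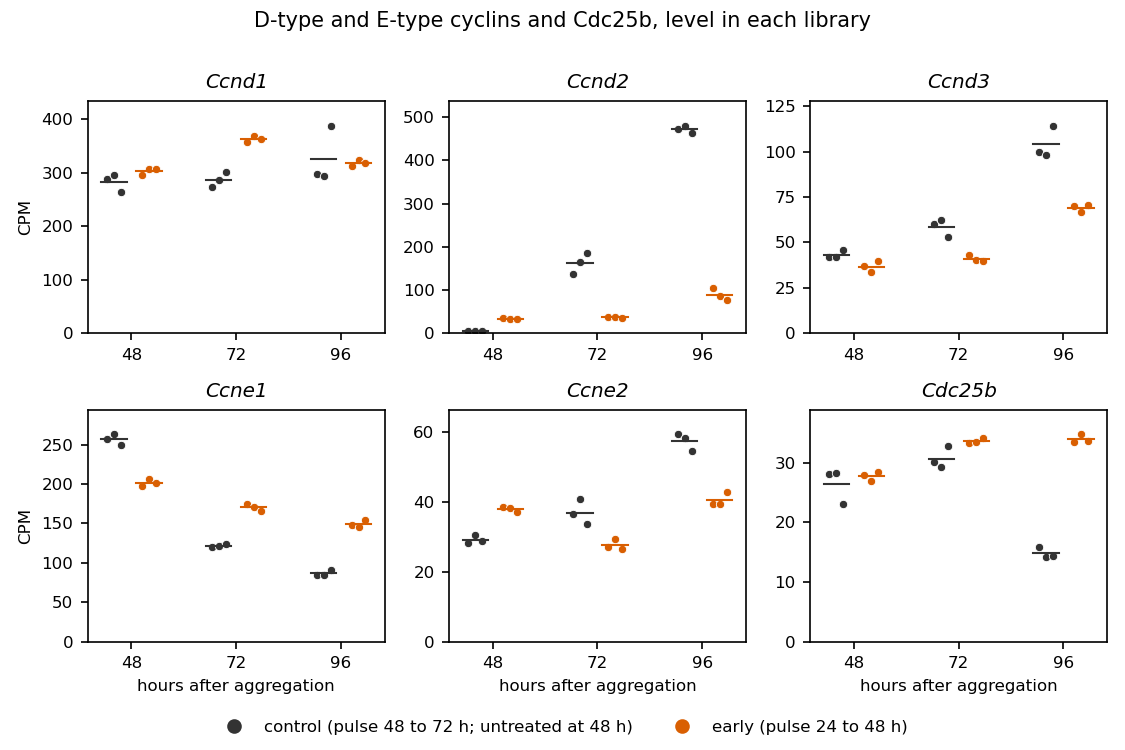
Level in CPM (vertical axes, from 0) of the D-type and E-type cyclins and Cdc25b at 48, 72 and 96 h after aggregation (horizontal axes), with a point for each library, a bar for the mean of 3, controls in grey and the early arm in orange. Ccnd2 climbs to 464 to 480 CPM in the controls of 96 h, Ccne1 falls with age while Ccne2 rises in the controls, and Cdc25b is low only in the controls of 96 h.

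Among their partners, Cdk4 was abundant and steady, at 632 to 756 CPM over all libraries. It was lower in the early arm at 96 h only, at -0.19 ± 0.04 (adjusted p = 2.98e-04). Cdk6, the other D-type kinase, was at 33.5, 34.5 and 30.2 CPM in the untreated controls of 48 h and at 59.8, 65.1 and 61.0 CPM after the early pulse, a difference of 0.92 ± 0.08 (adjusted p = 4.80e-08). Its FPKM values, 3.77, 3.48 and 3.97 in those controls and 4.02, 4.28 and 4.06 in the early arm, gave 0.11 (adjusted p = 0.428, limma), so the size of this change depended on the measure. The control step from 48 to 72 h had opposite signs in counts, 0.43 ± 0.08 (adjusted p = 2.15e-04), and on log2(FPKM + 1), -0.16 (adjusted p = 0.197). In counts Cdk6 was 0.23 ± 0.08 higher in the early arm at 72 h (adjusted p = 0.0272), a call lost without control replicate 3 or early replicate 2 of 72 h.

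Of the RB family, which holds E2F in check, the p107 gene Rbl1 rose in both control steps. Rbl1 stood at 23.1, 23.8 and 19.7 CPM at 48 h, 36.9, 41.8 and 36.8 at 72 h and 51.5, 47.1 and 50.8 at 96 h there and at 38.2, 34.3 and 36.9 CPM at 48 h, 34.4, 35.5 and 32.7 at 72 h and 40.6, 42.2 and 38.5 at 96 h in the early arm. It was higher at 48 h by 0.71 ± 0.08 (adjusted p = 4.41e-07) and lower at 96 h, at -0.30 ± 0.07 (adjusted p = 0.00147) in the early arm, the latter -0.17 (adjusted p = 0.092) on log2(FPKM + 1). It rose by 0.79 ± 0.08 (adjusted p = 5.09e-08) and 0.37 ± 0.07 (adjusted p = 2.63e-04) in the control steps. The p130 gene Rbl2, known from resting cells, was at 14.0, 15.1 and 13.7 CPM at the end of the early pulse and at 6.86 to 8.86 CPM in every other library. It was higher by 0.80 ± 0.10 (adjusted p = 2.10e-06) there and then fell by 0.82 ± 0.10 (adjusted p = 2.86e-06). On log2(FPKM + 1) these changes were 0.43 (adjusted p = 0.123) and -0.36 (adjusted p = 0.202). Rb1 itself lay at 14.9 to 20.9 CPM, with a difference of 0.36 ± 0.07 (adjusted p = 3.37e-04) at 72 h that read -0.02 (adjusted p = 0.851) on log2(FPKM + 1). At 48 h it was -0.18 ± 0.07 (adjusted p = 0.0499), a call lost in 4 of the 6 fits that left out a library of those groups. That call was also lost with DESeq2's size factors, with its Wald test, without a filter and with only the groups compared. The replicate block and leaving out the 3 control libraries numbered 3 removed it too.

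The CDK inhibitors among the members split. Cdkn1b (p27, an inhibitor of cyclin E and Cdk2) was at 66.4, 68.7 and 61.7 CPM at 48 h, 67.8, 71.3 and 58.5 at 72 h and 58.9, 56.4 and 48.3 at 96 h in the controls. Levels of the early arm were 59.2, 63.5 and 60.1 CPM at 48 h, 73.5, 77.4 and 72.9 at 72 h and 81.0, 85.0 and 77.8 at 96 h. At 96 h all early libraries lay above all controls, by 0.57 ± 0.07 (adjusted p = 2.70e-06), where the controls had fallen by 0.27 ± 0.07 since 72 h (adjusted p = 0.00493). Early Cdkn1b rose by 0.29 ± 0.07 (adjusted p = 0.00384) from 48 to 72 h. Cdkn2d (p19) was at 6.48 to 11.8 CPM and rose by 0.44 ± 0.14 (adjusted p = 0.01) in the control step from 48 to 72 h and by 0.35 ± 0.13 (adjusted p = 0.048) in the early step from 72 to 96 h. The latter call was lost in 4 of the 6 fits that left out a library (highest adjusted p = 0.200), with DESeq2's size factors, with its Wald test, without a filter and with the replicate block (adjusted p = 0.0553). Cdkn2c (p18) had the lowest level of the 48 genes, 0.249 to 1.31 CPM, and passed no test.

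The E-type cyclins of the S class differed between the arms in opposite directions. Ccne1 (cyclin E1, ENSMUSG00000002068.16, mm10 chr7:38097983-38107534) was at 257, 263 and 249 CPM at 48 h, 119.5, 122 and 124 at 72 h and 84.5, 84.2 and 91.2 at 96 h in the controls. Early-pulsed libraries stood at 198, 206 and 201 CPM at 48 h, 175, 171 and 166 at 72 h and 148, 145 and 154 at 96 h. It fell at every step in both arms, by 1.08 ± 0.04 and 0.49 ± 0.04 in the controls and by 0.24 ± 0.04 and 0.20 ± 0.04 in the early arm. At 48 h the early arm was the lower, -0.35 ± 0.04 (adjusted p = 1.14e-06), and at 72 and 96 h the higher, 0.49 ± 0.04 (adjusted p = 2.64e-08) and 0.79 ± 0.04 (adjusted p = 2.15e-11), with no overlap of libraries at any age. On log2(FPKM + 1) the early step from 48 to 72 h was -0.13. Ccne2 (cyclin E2, ENSMUSG00000028212.16, mm10 chr4:11191350-11204779) was at 28.1, 30.3 and 28.6 CPM at 48 h, 36.4, 40.6 and 33.6 at 72 h and 59.2, 58.2 and 54.3 at 96 h in the controls. Values of the early arm were 38.4, 38.2 and 37.1 CPM at 48 h, 27.1, 29.3 and 26.4 at 72 h and 39.4, 39.3 and 42.6 at 96 h. Its differences had the other sign at each age, 0.39 ± 0.07 (adjusted p = 1.63e-04), -0.42 ± 0.07 (adjusted p = 8.13e-05) and -0.50 ± 0.07 (adjusted p = 2.96e-06), and again no libraries overlapped. Control gastruloids raised Ccne2 by 0.35 ± 0.07 and 0.63 ± 0.07, and the early ones lowered it by 0.45 ± 0.07 and then raised it by 0.55 ± 0.07. Ccne1 made up 93.4% ± 0.207 of the summed FPKM of the pair in the controls of 48 h, 70.2% ± 1.75 in those of 96 h and 85.5% ± 0.437 in the early arm of 96 h. Cdk2, their kinase, lay at 102 to 122 CPM in all libraries.

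The E2F factors and Cdc25a, the phosphatase that activates Cdk2, were lower at 72 h than at 48 h in the early arm. There E2f1 fell by 0.48 ± 0.07, E2f2 by 0.62 ± 0.15, E2f3 by 0.20 ± 0.06 and Cdc25a by 0.44 ± 0.07 (adjusted p = 2.90e-05, 0.00325, 0.00851 and 3.80e-05). On log2(FPKM + 1) the change of E2f3 was -0.08 (adjusted p = 0.281). In the control step E2f1 fell by 0.31 ± 0.07 and Cdc25a by 0.55 ± 0.07, while E2f3 was at 0.13 ± 0.06 (adjusted p = 0.0517) and E2f2 at -0.17 ± 0.15 (adjusted p = 0.343). E2f1 was higher in the early arm at 48 h, 0.30 ± 0.07 (adjusted p = 0.00213), at 54.1, 55.9 and 57.9 CPM against 44.1, 42.3 and 50.7 CPM. E2f3 was lower there at 72 h, -0.28 ± 0.06 (adjusted p = 5.27e-04). E2f2, at 5.58 to 13.8 CPM, was lower in the early arm at 96 h, -0.38 ± 0.15 (adjusted p = 0.034), a call lost without control replicate 3, early replicate 1 or early replicate 2 of 96 h and on log2(FPKM + 1) (-0.23, adjusted p = 0.0681).

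Origin licensing genes fell in both arms from 48 to 72 h. Cdc6, which loads the MCM helicase, was at 103, 101 and 102 CPM at 48 h, 62.0, 66.2 and 61.4 at 72 h and 70.0, 70.6 and 77.6 at 96 h in the controls. The early libraries were at 76.2, 72.9 and 78.1 CPM at 48 h, 63.5, 61.8 and 62.6 at 72 h and 69.3, 71.0 and 71.1 at 96 h. The arms passed the test at 48 h alone, -0.43 ± 0.05 (adjusted p = 6.03e-07), where all early libraries were below all controls. Cdc6 fell by 0.69 ± 0.05 (adjusted p = 5.47e-10) in the control step and by 0.27 ± 0.05 (adjusted p = 1.53e-04) in the early step, the latter -0.14 on log2(FPKM + 1). Mcm2, a subunit of that helicase, was at 741, 762 and 684 CPM at 48 h, 491, 509 and 511 at 72 h and 467, 459 and 458 at 96 h in the controls. Levels of the early arm were 684, 691 and 679 CPM at 48 h, 581, 604 and 596 at 72 h and 515, 494 and 499.9 at 96 h. It fell by 0.53 ± 0.04 and 0.21 ± 0.04 in these steps, and was higher in the early arm at 72 h, 0.24 ± 0.04 (adjusted p = 8.09e-05), and at 96 h, 0.12 ± 0.04 (adjusted p = 0.0102), with no overlap at either age. All 6 subunits Mcm2 to Mcm7 fell in counts in the control step, by 0.13 to 0.53, and in the early step, by 0.09 to 0.26. On log2(FPKM + 1), Mcm4 in the control step (-0.04) and Mcm4, Mcm5 and Mcm7 in the early step (-0.01, -0.04 and 0.01) were not called. In counts the Mcm7 call of the early step was lost without a filter and in 5 of the 6 fits that left out a library (highest adjusted p = 0.136), and the Mcm4 call without a filter. At 48 h Mcm4, Mcm6 and Mcm7 were lower in the early arm, by 0.14 to 0.18. At 72 h Mcm2, Mcm5 and Mcm7 were higher, Mcm7 only in counts, and Mcm4 was lower (-0.16 ± 0.03 (adjusted p = 7.43e-04)).

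Cdt1, which brings the helicase to origins, was 1 of the 3 S genes that were higher in the early arm at 48 h, by 0.21 ± 0.06 (adjusted p = 0.0109), a call not kept on log2(FPKM + 1) (0.14, adjusted p = 0.126). Further differences were 0.31 ± 0.06 (adjusted p = 7.10e-04) at 72 h and 0.16 ± 0.06 (adjusted p = 0.035) at 96 h, the last lost in 4 of the 6 fits that left out a library of 96 h (highest adjusted p = 0.182) and with only the groups compared (adjusted p = 0.0892). Its levels went from 224, 208 and 228 to 133, 125 and 140.4 CPM in the early arm between 48 and 96 h. Gmnn (geminin), the inhibitor of Cdt1, fell by 0.28 ± 0.06 and 0.27 ± 0.06 in the steps from 48 to 72 h and was 0.21 ± 0.06 (adjusted p = 0.00579) higher in the early arm at 96 h. Fbxo5 (Emi1), which holds back the anaphase-promoting complex in S phase, came next to Ccne1 among the S genes that were higher in the early arm at 72 and 96 h. Its libraries were at 131, 137 and 140.3 CPM at 48 h, 96.1, 104 and 92.0 at 72 h and 83.4, 82.6 and 77.8 at 96 h in the controls. Early-pulsed libraries stood at 129, 128 and 134 CPM at 48 h, 125, 122 and 124 at 72 h and 121, 113 and 118 at 96 h. Fbxo5 was higher in the early arm by 0.35 ± 0.05 (adjusted p = 1.31e-05) and 0.53 ± 0.05 (adjusted p = 3.52e-08) at 72 and 96 h, with no overlap.

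Of the genes of nucleotide supply, Rrm2, the small subunit of ribonucleotide reductase, was at 388, 387 and 394 CPM at 48 h, 296, 299 and 310.3 at 72 h and 349, 341 and 323 at 96 h in the controls. Values of the early arm were 399.6, 402 and 411 CPM at 48 h, 338, 344 and 352 at 72 h and 351, 337 and 364 at 96 h. It fell by 0.37 ± 0.04 (adjusted p = 1.42e-07) and 0.23 ± 0.04 (adjusted p = 1.09e-04) from 48 to 72 h and was higher in the early arm at 72 h only, 0.19 ± 0.04 (adjusted p = 5.16e-04). Rrm1, the large subunit, fell by 0.23 ± 0.05 in the early step, or -0.13 on log2(FPKM + 1) (adjusted p = 0.115), and was -0.12 ± 0.05 (adjusted p = 0.0586) in the control step. Pcna, the sliding clamp, fell by 0.34 ± 0.04 and 0.32 ± 0.04, and Tyms (thymidylate synthase) by 0.50 ± 0.05 and 0.28 ± 0.05. In the next day the controls raised Tyms by 0.26 ± 0.05, Cdc6 by 0.20 ± 0.05, Rrm2 by 0.16 ± 0.04 and E2f2 by 0.43 ± 0.15. The Cdc6 call was lost on log2(FPKM + 1), and that of E2f2 in 3 of the 6 fits that left out a library. They lowered Mcm2, Mcm3, Mcm5, Cdt1, Pcna and Fbxo5 by 0.11 to 0.26 and Ccne1 by more. The Pcna call was lost without a filter and in 3 of the 6 fits that left out a library.

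**Figure D3:**
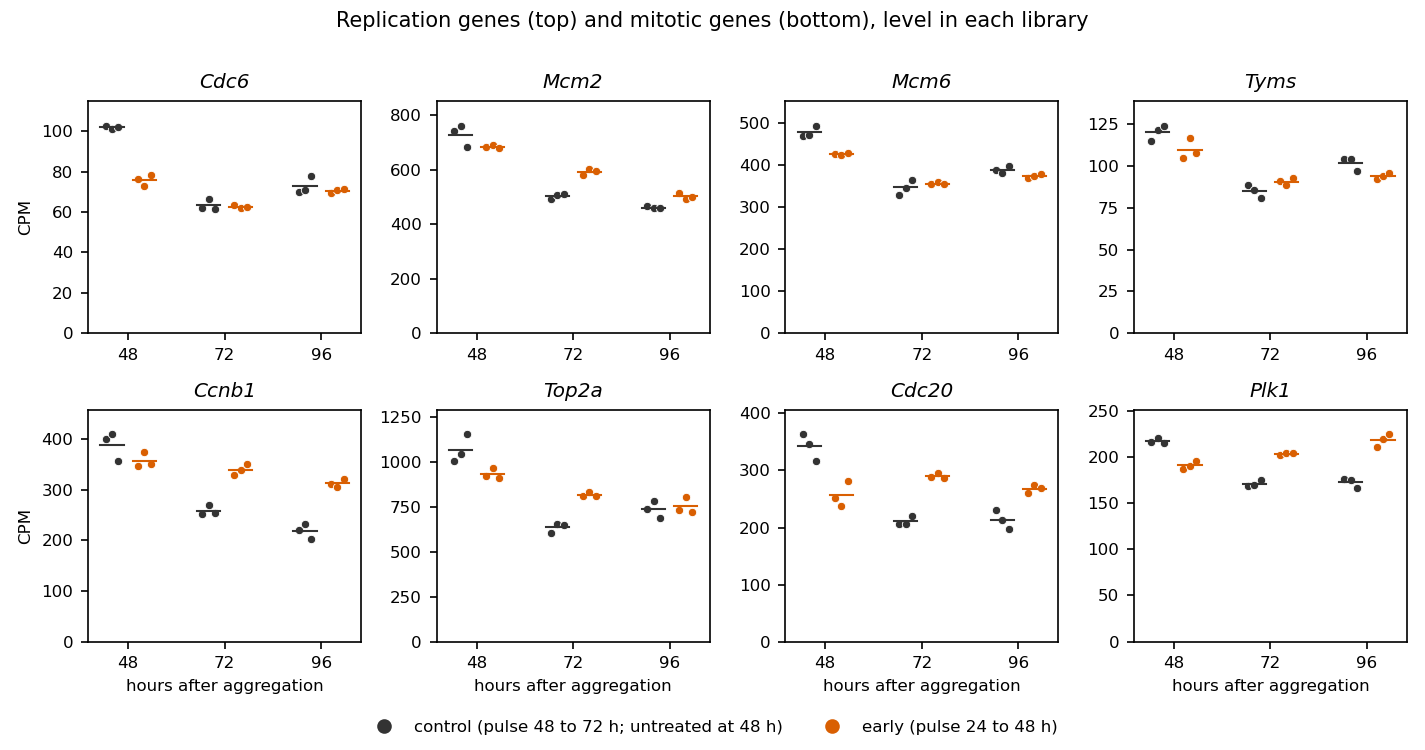
Level in CPM (vertical axes, from 0) of 4 S genes (top) and 4 mitotic genes (bottom) at 48, 72 and 96 h after aggregation (horizontal axes), with a point for each library, a bar for the mean of 3, controls in grey and the early arm in orange. In the bottom panels the controls drop between 48 and 72 h, and Ccnb1, Cdc20 and Plk1 of the early arm lie above the controls at 72 and 96 h.

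In the mitotic class, cyclin B1 was higher in the early arm from 72 h on. Ccnb1 (cyclin B1, ENSMUSG00000041431.16, mm10 chr13:100778649-100786570) was at 399.8, 409 and 357 CPM at 48 h, 252, 269 and 253 at 72 h and 221, 232 and 202 at 96 h in the controls. The early libraries were at 347, 374 and 351 CPM at 48 h, 328, 339 and 351 at 72 h and 311, 306 and 321 at 96 h. The libraries overlapped at 48 h, -0.12 ± 0.05 (adjusted p = 0.0828), and not at 72 or 96 h, when the early arm was higher by 0.39 ± 0.06 (adjusted p = 1.49e-05) and 0.52 ± 0.06 (adjusted p = 2.67e-07). It fell by 0.59 ± 0.06 (adjusted p = 3.97e-08) in the control step from 48 to 72 h and was -0.07 ± 0.05 (adjusted p = 0.301) in the early step. Ccnb2 (cyclin B2) was lower in the early arm at 48 h, -0.15 ± 0.04 (adjusted p = 0.00954), was at -0.07 ± 0.04 (adjusted p = 0.206) at 72 h and -0.00 ± 0.04 (adjusted p = 0.996) at 96 h, and rose from 72 to 96 h in both, by 0.22 ± 0.04 and 0.29 ± 0.04. Ccna2 (cyclin A2), which acts in S phase and at mitotic entry, was higher in the early arm by 0.34 ± 0.04 (adjusted p = 1.01e-06) and 0.36 ± 0.04 (adjusted p = 2.09e-07) at 72 and 96 h. Cdk1, the mitotic kinase, was higher by 0.22 ± 0.04 (adjusted p = 2.54e-04) and 0.21 ± 0.04 (adjusted p = 2.10e-04) at these ages. At 48 h Cdk1 was 0.02 ± 0.04 (adjusted p = 0.774) in counts and -0.13 (adjusted p = 0.00239) on log2(FPKM + 1).

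Of the mitotic kinases, Plk1, the polo kinase of mitotic entry, was at 217, 221 and 215 CPM at 48 h, 169, 169.5 and 176 at 72 h and 177, 175 and 167 at 96 h in the controls. Levels of the early arm were 187, 191 and 196 CPM at 48 h, 202, 204 and 205 at 72 h and 211, 220.0 and 225 at 96 h. All early libraries were below the controls at 48 h, -0.19 ± 0.04 (adjusted p = 3.83e-04), and above them at 72 h, 0.25 ± 0.04 (adjusted p = 2.31e-05), and at 96 h, 0.34 ± 0.04 (adjusted p = 2.75e-07). Cdc20, which activates the anaphase-promoting complex, showed the same turn with a wider swing. It was at 363, 346 and 317 CPM at 48 h, 206, 206 and 220.3 at 72 h and 230.2, 214 and 197 at 96 h in the controls. Early-pulsed libraries stood at 253, 238 and 281 CPM at 48 h, 289, 296 and 287 at 72 h and 260.4, 274 and 269 at 96 h. Its differences were -0.41 ± 0.06 (adjusted p = 2.94e-05), 0.46 ± 0.06 (adjusted p = 1.02e-05) and 0.32 ± 0.06 (adjusted p = 2.35e-04), with no overlap at any age. Bub1b (BubR1), of the checkpoint that restrains Cdc20, went from -0.15 ± 0.05 (adjusted p = 0.0108) to 0.30 ± 0.05 (adjusted p = 3.95e-05) and 0.30 ± 0.05 (adjusted p = 1.95e-05). Aurka (Aurora A, of the spindle poles) was 0.31 ± 0.05 (adjusted p = 6.96e-05) and 0.45 ± 0.05 (adjusted p = 3.58e-07) higher at 72 and 96 h. For Bub1, Mad2l1 and Aurkb the arms differed at 72 h, by 0.15 ± 0.04, 0.20 ± 0.04 and 0.19 ± 0.05, and at 96 h none of these 3 passed the test.

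Top2a (topoisomerase II alpha, which untangles chromosomes) had the largest fall of the mitotic genes in the control step from 48 to 72 h. It was at 1007, 1043 and 1153 CPM at 48 h, 603, 656 and 647 at 72 h and 737, 785 and 689 at 96 h in the controls. Values of the early arm were 924, 964 and 911 CPM at 48 h, 811, 835 and 809 at 72 h and 734, 805 and 724 at 96 h. The control step from 48 to 72 h lowered it by 0.75 ± 0.06 (adjusted p = 2.52e-09) and the early step by 0.19 ± 0.06 (adjusted p = 0.0121), the latter lost without early replicate 2 of 48 h and on log2(FPKM + 1) (-0.08, adjusted p = 0.305). Differences between the arms were -0.19 ± 0.06 (adjusted p = 0.00968) at 48 h and 0.37 ± 0.06 (adjusted p = 4.75e-05) at 72 h, and the libraries overlapped at 96 h. The call at 48 h was lost when control replicate 3 of 48 h alone was left out. It was kept without the 3 control libraries numbered 3. Mki67, the proliferation marker Ki-67, passed the test between the arms at no age. Its libraries were at 339, 363 and 332 CPM at 48 h, 364, 386 and 317 at 72 h and 433, 468 and 417 at 96 h in the controls. The early libraries were at 359, 388 and 350.0 CPM at 48 h, 373, 392 and 375 at 72 h and 390.0, 443 and 339 at 96 h. At each age they overlapped between the arms, with differences of 0.09 ± 0.08 (adjusted p = 0.423), 0.09 ± 0.08 (adjusted p = 0.369) and -0.17 ± 0.08 (adjusted p = 0.0798). Only the control step from 72 to 96 h passed the test, 0.30 ± 0.08 (adjusted p = 0.00383). Birc5 (survivin), of the same complex as Aurora B, was higher in the early arm at 96 h alone, 0.25 ± 0.05 (adjusted p = 3.94e-04).

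The CDC25 phosphatases, which remove the inhibitory phosphates from CDKs, went their own ways. Cdc25b (ENSMUSG00000027330.16, mm10 chr2:131186948-131198497) was at 28.1, 28.3 and 23.1 CPM at 48 h, 30.1, 29.3 and 32.7 at 72 h and 15.8, 14.2 and 14.3 at 96 h in the controls. Levels of the early arm were 28.0, 26.9 and 28.4 CPM at 48 h, 33.3, 33.5 and 34.1 at 72 h and 33.5, 34.8 and 33.7 at 96 h. The controls of 96 h were the low group, below all 15 other libraries, and the early arm was higher there by 1.20 ± 0.08 (adjusted p = 2.63e-10), 2.29-fold. Cdc25b had fallen by 1.05 ± 0.08 (adjusted p = 2.20e-09) in the controls since 72 h. Of the 3 controls of 96 h 1 is listed at 0 for this gene in the FPKM table, although it had 14.2 CPM in the counts. The small control rise from 48 to 72 h, 0.21 ± 0.07 (adjusted p = 0.0196), was lost without control replicate 3 of either age. Cdc25c rose with age in the controls, from 21.2, 20.5 and 21.2 CPM at 48 h to 31.3, 29.5 and 28.8 at 72 h and 40.9, 40.1 and 39.2 at 96 h. Early libraries were at 21.0, 23.2 and 23.1, then 25.4, 22.5 and 24.3 and then 31.7, 31.2 and 32.6 CPM. The arms overlapped at 48 h and not later, with the early arm lower, at -0.31 ± 0.06 (adjusted p = 4.61e-04) and -0.33 ± 0.06 (adjusted p = 1.02e-04), against the direction of its class.

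To set the classes side by side, the log2 CPM of each gene was centred on its mean over the 18 libraries and averaged over the class. The S class fell from 0.196 to 0.221 in the 3 controls of 48 h to -0.161 to -0.110 in those of 72 h, and from 0.168 to 0.184 to -0.099 to -0.088 in the early arm. The mitotic class fell from 0.092 to 0.127 to -0.161 to -0.143 in the controls, but lay at 0.002 to 0.030 and then 0.032 to 0.047 in the early arm. Mitotic minus S was -0.130 to -0.077 and then -0.040 to 0.018 in the controls of 48 and 72 h, and -0.166 to -0.145 and then 0.120 to 0.145 in the early arm. At 96 h it was -0.085 to 0.009 in the controls. Early-pulsed libraries stood at 0.144 to 0.176. The early libraries of 72 and 96 h had the 6 highest values of mitotic minus S among the 18 libraries, and those of 48 h the 3 lowest.

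**Figure D4:**
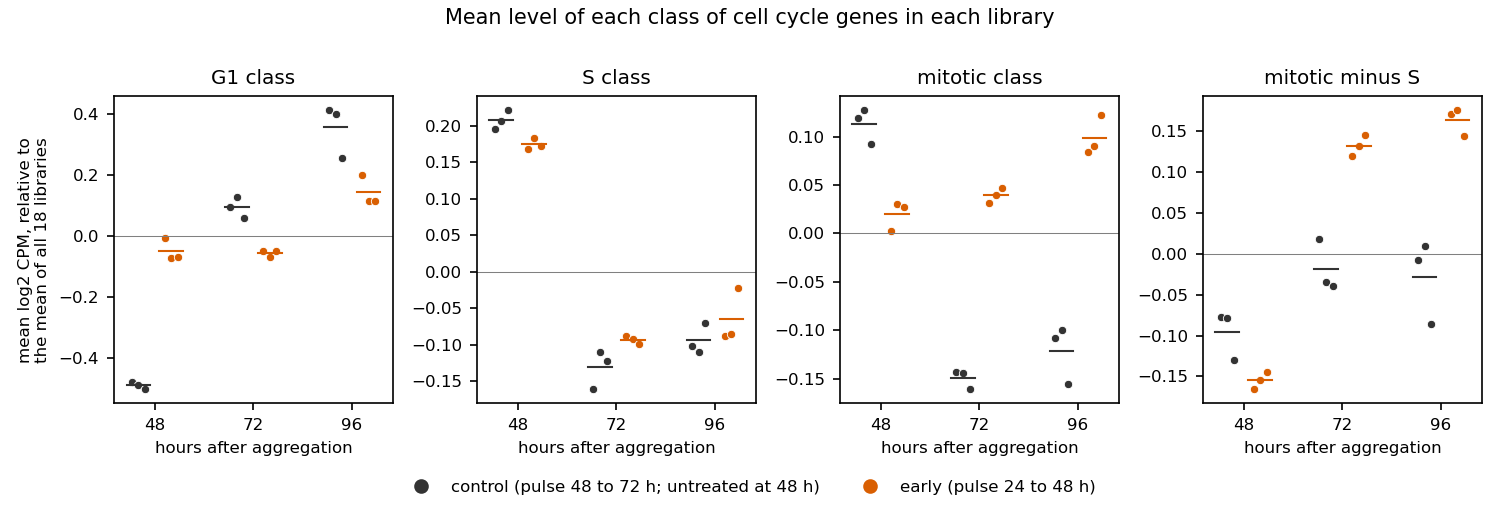
Mean log2 CPM of each class, relative to its mean over all 18 libraries (vertical axes), and the mitotic class minus the S class (right panel), at 48, 72 and 96 h after aggregation (horizontal axes), with a point for each library, a bar for the mean of 3, controls in grey and the early arm in orange. In the right panel the early arm lies below the controls at 48 h and above them at 72 and 96 h.

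Whether the step from 48 to 72 h differed between the arms was tested for each gene as the early step minus the control step, a comparison added after the data had been seen. Of the mitotic class 11 of 16 genes were higher in this difference and 1 was lower, with a median of 0.34. Of the S class 9 were higher and 2 lower of 21, with a median of 0.10, and of the G1 class 2 were higher and 5 lower of 11, with a median of -0.28. Over all genes 22.8% were higher and 23.6% lower, 46.4% in all, with a median of -0.02. This comparison and that at 72 h share the libraries of 72 h. The mitotic count was 11 higher and 1 lower in each of the 9 other fits that left out no replicate, and 12 and 1 without the 3 control libraries numbered 3. Without those libraries 8069 of all genes were called, against 7437 with them, and 51.8% of the 8069 were higher. Cdc20 led it, 0.88 ± 0.09 (adjusted p = 2.45e-07), before Top2a, 0.56 ± 0.08 (adjusted p = 1.67e-05), and Ccnb1, 0.52 ± 0.08 (adjusted p = 2.84e-05). Plk1 was at 0.44 ± 0.05 (adjusted p = 1.64e-06). Cdc25c was the exception, -0.41 ± 0.09 (adjusted p = 9.42e-04), and Mki67 was at 0.01 ± 0.11 (adjusted p = 0.964). In the S class Ccne1 was at 0.84 ± 0.06 (adjusted p = 1.18e-09), Cdc6 at 0.41 ± 0.07 (adjusted p = 5.55e-05), Mcm2 at 0.33 ± 0.05 (adjusted p = 8.69e-05) and Ccne2 at -0.80 ± 0.10 (adjusted p = 2.23e-06). In the G1 class Ccnd2 was at -4.83 ± 0.17 (adjusted p = 1.33e-13), Rbl1 at -0.88 ± 0.10 (adjusted p = 1.84e-06) and Rb1 at 0.54 ± 0.10 (adjusted p = 2.00e-04).

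**Figure D5:**
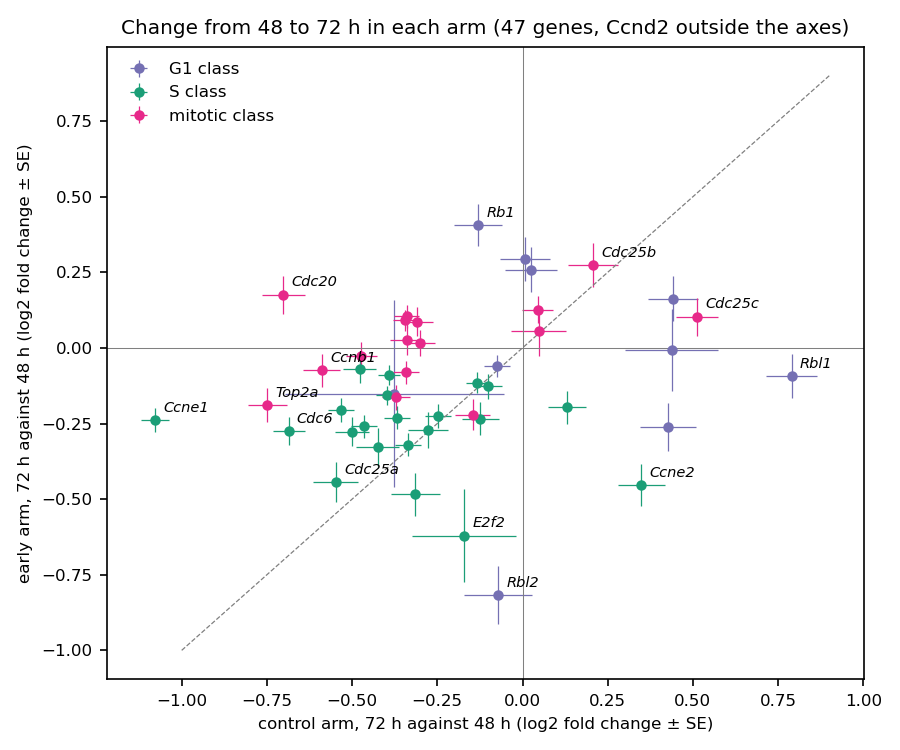
Log2 fold change ± SE from 48 to 72 h in the control arm (horizontal axis) and the early arm (vertical axis) for 47 of the 48 genes, coloured by class, with a dashed line of equal change and Ccnd2 outside the axes at 4.96 and 0.13. Most mitotic genes lie left of 0 and above the dashed line, near 0 on the vertical axis, while the S genes lie below 0 on both axes apart from Ccne2 and E2f3, which lie right of 0.

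Set by time since the pulse rather than by age, the change over a day was lower in the early arm than in the controls for most S genes. Over the day after its own pulse (48 to 72 h in the early arm, 72 to 96 h in the controls), the early change minus the control change was lower for 14 of 21 S genes and higher for 2, lower for 5 of 16 mitotic genes and higher for 1, and lower for 6 of 11 G1 genes and higher for 2. Of all genes 21.7% were lower and 22.8% higher, 44.5% in all. Ccne2 had the lowest S value, -1.09 ± 0.10 (adjusted p = 5.20e-08), before E2f2, -1.05 ± 0.21 (adjusted p = 6.50e-04), with Cdc6 at -0.47 ± 0.07 (adjusted p = 1.47e-05) and Rrm2 at -0.39 ± 0.05 (adjusted p = 1.19e-05). Cdc25b had the highest value of the members, 1.32 ± 0.10 (adjusted p = 1.52e-08), and Ccnd2 the lowest, -1.42 ± 0.14 (adjusted p = 2.65e-07). Cdkn1b stood against its class at 0.57 ± 0.11 (adjusted p = 2.80e-04). On log2(FPKM + 1) the mitotic count was 6 higher and 3 lower, so its balance depended on the measure. Of all genes called on that scale 61.0% were higher, against 51.2% in counts. From 72 to 96 h the change differed between the arms for 15 of 48 members, near the share of all genes. Of the members 6 were higher and 9 lower, against 17.8% and 15.7% of all genes, 33.6% in all. Cdc25b, 1.06 ± 0.10 (adjusted p = 3.79e-07), was far ahead of Cdkn1b, 0.40 ± 0.10 (adjusted p = 0.00699).

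Other genes of the same machinery, from lists that hold none of the 48, gave like counts in some comparisons and not in others. Of 32 other mitotic genes 25 were higher and 0 lower in the early arm at 72 h, against the 21.7% and 23.2% of all genes, and in the control step from 48 to 72 h 0 rose and 27 fell, against 31.1% and 30.3%. The mitotic list differed from the members at 48 h, with 4 higher and 8 lower, against 23.0% and 20.7% of all genes. It also differed in the early step from 48 to 72 h, where 2 rose and 10 fell, against 20.7% and 21.9%, with a median of -0.06. Of 38 other replication genes 29 fell and 2 rose in that control step, against 30.3% and 31.1% of all genes, and 27 fell and 1 rose in the early step, against 21.9% and 20.7%. Mybl2, an activator of mitotic genes, led the mitotic list: it was at 249, 249 and 288 CPM at 48 h, 111, 102 and 122 at 72 h and 66.5, 70.0 and 83.4 at 96 h in the controls. Values of the early arm were 434, 418 and 432 CPM at 48 h, 262, 264 and 273 at 72 h and 154, 149 and 164 at 96 h. It was higher in the early arm at each age, by 0.71 ± 0.07 (adjusted p = 3.86e-07), 1.26 ± 0.08 (adjusted p = 5.54e-10) and 1.09 ± 0.08 (adjusted p = 1.52e-09), with no overlap. Rfc5, of the clamp loader, had the largest fall of the replication list in the control step, -1.10 ± 0.04 (adjusted p = 2.11e-13), and the largest difference at 72 h, 0.71 ± 0.04 (adjusted p = 4.04e-10).

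Of 22 other G1 regulators, 5 were higher and 5 lower in the early arm at 72 h, against 21.7% and 23.2% of all genes. Cdkn1a (p21, a CDK inhibitor and p53 target) was at 61.3, 60.1 and 58.4 CPM at 48 h, 450.2, 458 and 494 at 72 h and 214, 206 and 169.9 at 96 h in the controls. The early libraries were at 272, 281 and 275 CPM at 48 h, 226, 238 and 231 at 72 h and 234, 221 and 226 at 96 h. At the end of each pulse it was higher than at 48 h without treatment, by 2.20 ± 0.07 (adjusted p = 2.63e-14) after the early pulse and 2.96 ± 0.07 (adjusted p = 2.99e-16) after the control pulse. The latter sets 72 h against 48 h, so age and the pulse cannot be told apart in it. Cdkn1c (p57) was at 35.6, 27.3 and 24.9 CPM in the controls of 96 h and at 9.21 to 16.0 CPM in the other libraries, with the early arm lower at 96 h, at -1.07 ± 0.17 (adjusted p = 3.50e-05). Cdkn2a was also lower there, -1.09 ± 0.16 (adjusted p = 1.05e-05), at 4.37, 4.55 and 5.60 against 10.5, 9.29 and 11.2 CPM. Cdkn2b stayed at or under 3.72 CPM. Mycn, a growth regulator of embryonic cells, was at 254, 244 and 249.5 CPM at 48 h, 39.1, 33.3 and 37.1 at 72 h and 130.0, 121 and 84.6 at 96 h in the controls. Levels of the early arm were 150.4, 146 and 178 CPM at 48 h, 164, 166 and 163 at 72 h and 100.5, 98.1 and 101 at 96 h. It fell by 2.77 ± 0.12 in the control step from 48 to 72 h (adjusted p = 6.67e-13), and the early arm was higher at 72 h by 2.17 ± 0.12 (adjusted p = 7.98e-11). Myc passed the test between the arms at no age (0.30 ± 0.14 (adjusted p = 0.0844), 0.07 ± 0.14 (adjusted p = 0.724) and 0.30 ± 0.14 (adjusted p = 0.0648)).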

How the data were processed

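Messenger RNA of 18 libraries was sequenced from a stranded ligation kit, per the labels' protocols. The authors trimmed reads with cutadapt 4.0, aligned them with STAR 2.7.8a to mm10 and ran Cufflinks 2.2.1, per the submitters' processing notes. The deposited count table holds whole read counts per gene, and the deposited FPKM table holds FPKM, scaled by library size and transcript length. How counts treated strand and shared reads is not given in the sources used here. Groups came from the titles and treatment labels, and 0 sample columns were left unused.

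Counts were filtered with filterByExpr, which left 16041 genes, and scaled by TMM. A quasi-likelihood model with 1 coefficient per group was fitted over all libraries (edgeR 4.0.16, limma 3.58.1, R 4.3.3). P-values were 2-sided, adjusted by Benjamini-Hochberg over these genes, and called under 0.05. Log2 CPM used a prior count of 2. The fit was tested on simulated data. Members, lists and tests were chosen with earlier results of these data known. Named were a panel of 12 members, the 2 called members of the largest change in each class and direction with at least 5 CPM, called members against their class, 6 other G1 regulators, and up to 2 called genes of the largest change in each other list. The alternatives were DESeq2 1.42.0 size factors and its Wald test, no filter, a filter of 1 CPM in 3 libraries, only the groups compared, a replicate block, limma on log2(FPKM + 1) and log2(FPKM + 0.1) for genes of at least 1 FPKM and the former on all genes, each library left out, and the 3 control libraries numbered 3 left out. Tables, motif counts and figures used Python 3.11.15, pandas 2.3.3, numpy 2.4.6 and matplotlib 3.10.9.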

Additional observations from a re-analysis of the deposited data

Results flagged for a closer look

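The changes of 2 arms over a day were compared by an interaction term in edgeR's model (early change minus control change, log2 ± SE), and the values below are those of the named members whose adjusted p was under 0.05. From 48 to 72 h, a comparison added after the data had been seen, 22 of the 48 members were higher and 8 lower, against 22.8% and 23.6% of all genes. Higher were Cdc20 at 0.88 ± 0.09, Ccne1 at 0.84 ± 0.06, Top2a at 0.56 ± 0.08, Rb1 at 0.54 ± 0.10, Ccnb1 at 0.52 ± 0.08, Plk1 at 0.44 ± 0.05, Cdc6 at 0.41 ± 0.07, Mcm2 at 0.33 ± 0.05, Cdkn1b at 0.29 ± 0.11 and Rrm2 at 0.14 ± 0.05. Lower were Ccnd2 at -4.83 ± 0.17, Rbl1 at -0.88 ± 0.10, Ccne2 at -0.80 ± 0.10, Cdc25c at -0.41 ± 0.09, E2f3 at -0.33 ± 0.08 and Ccnd3 at -0.28 ± 0.11. The calls of Ccnd3, Cdkn1b and Rrm2 were lost in 8, 6 and 9 of the 12 fits that left out a library, and those of Ccnd3 and Rb1 on log2(FPKM + 1).

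From 72 to 96 h 6 of the 48 members were higher and 9 lower, against 17.8% and 15.7% of all genes. Higher were Cdc25b at 1.06 ± 0.10, Cdkn1b at 0.40 ± 0.10, Ccne1 at 0.29 ± 0.06, Birc5 at 0.26 ± 0.07 and Fbxo5 at 0.18 ± 0.07, and lower were Cdk6 at -0.39 ± 0.11, Ccnd1 at -0.38 ± 0.11, Top2a at -0.33 ± 0.08, Aurkb at -0.22 ± 0.07, Tyms at -0.21 ± 0.07 and Mcm7 at -0.14 ± 0.05. Here the calls of Fbxo5, Mcm7, Tyms and Aurkb were lost in 9, 7, 6 and 2 of 12 such fits, and on log2(FPKM + 1) those of Cdk6, Mcm7, Tyms and Aurkb. Leaving out single libraries moved Ccnd1 between -0.45 and -0.24, with the call kept.

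Over the day after each arm's own pulse 5 of the 48 members were higher and 25 lower, against 22.8% and 21.7% of all genes. Higher were Cdc25b at 1.32 ± 0.10, Cdkn1b at 0.57 ± 0.11, Rb1 at 0.28 ± 0.10, Ccne1 at 0.25 ± 0.06 and Fbxo5 at 0.19 ± 0.07. Lower were Ccnd2 at -1.42 ± 0.14, Ccne2 at -1.09 ± 0.10, E2f2 at -1.05 ± 0.21, Cdk6 at -0.77 ± 0.11, Ccnd3 at -0.66 ± 0.10, Cdc6 at -0.47 ± 0.07, Top2a at -0.40 ± 0.08, Rrm2 at -0.39 ± 0.05 and Mad2l1 at -0.33 ± 0.05. Rb1 and Fbxo5 each lost the call in 4 of 12 such fits, and Cdk6 lost it on log2(FPKM + 1). Cdc25b lost the call on log2(FPKM + 0.1) in this comparison and from 72 to 96 h, where 1 control of 96 h is listed at 0 FPKM. The arms were of different ages in this comparison, so that age and time since the pulse cannot be told apart in it.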

How the results depend on the processing

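Counts of called members were recomputed under 10 settings and with each library left out. They moved by over 1.5 times in the following. In the early arm against the controls at 48 h, 4 were higher on each FPKM scale, not 7. In the early step from 48 to 72 h, 12 were higher on each FPKM scale and 11 with only the groups compared, not 7, and 14, 14 and 10 were lower on log2(FPKM + 1), log2(FPKM + 0.1) and log2(FPKM + 1) without a filter, not 25. In the early step from 72 to 96 h, 20 were higher on log2(FPKM + 0.1), not 13, and 10 were lower with only the groups compared and without the 3 control libraries numbered 3, not 6. In the arm difference from 72 to 96 h, 11 and 10 were higher and 4 and 4 lower on log2(FPKM + 1) and log2(FPKM + 0.1), not 6 and 9, and 2 were lower on the unfiltered scale. In the arm difference from 48 to 72 h, 5 were lower on the unfiltered FPKM scale, not 8. In the day after the pulse, 11, 10 and 11 were higher on the 3 FPKM scales and 3 without a filter, not 5, and 16 were lower on the unfiltered FPKM scale, not 25. The cause was not tested. With single libraries left out, the higher counts ranged from 4 to 8 in the early step from 48 to 72 h, from 3 to 7 in the day after the pulse and from 8 to 13 in the early step from 72 to 96 h. Signs reversed on log2(FPKM + 1) and log2(FPKM + 0.1), with the former also without a filter: Cdk1 at 48 h (-0.13 on all), Rb1 at 72 h (-0.025 and -0.030) and in the arm difference from 72 to 96 h (0.076 and 0.095), Cdk4 (0.14 and 0.15) and Cdk6 (-0.16 and -0.21) in the control step from 48 to 72 h, Cdk6 (0.012 and 0.010) and Mcm7 (0.013 and 0.014) in the early step from 48 to 72 h and Cdk6 in the arm difference from 48 to 72 h (0.18 and 0.22). Ccnd1 at 96 h reversed to 0.11 without the 3 control libraries numbered 3. Of all genes called on log2(FPKM + 1), 41.8%, 37.8%, 61.9%, 70.3% and 68.5% were higher in the early arm at 48 h, at 72 h, in the control step from 48 to 72 h and in the early steps to 72 and 96 h, against 52.7%, 48.3%, 50.7%, 48.7% and 50.0% in counts. On log2(FPKM + 0.1) they were 65.1% in the arm difference from 72 to 96 h and 63.9% in the day after the pulse, against 53.1% and 51.2% in counts. Depth limited Cdkn2c most, with SEs of 0.31 to 0.47.

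Replicate numbers did not pair the libraries throughout: correlations of same-numbered deviations were -0.08 to 0.17, above 0.1 in every pair of no comparison. Every library was nearest its own number only in the early and control libraries of 96 h. In each control step 2 libraries were nearest their own number, among them control replicate 3, at 0.11 and 0.15. Whether control replicate 3 had a trait shared between ages was not tested. With the replicate block, 22 members were higher and 8 lower in the early arm at 72 h, against 21 and 6, and the block moved no count by over 1.5 times.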
